A study of Bos taurus with 4 samples.

Results

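Nuclear receptors are transcription factors that are switched by small lipophilic ligands or, in the orphan receptors, work without a known natural one. The genes described here are 41 listed bovine nuclear receptors and coregulators, taken as a list of symbols by their function, with no threshold on a measured value and with earlier results of these data known. Every non-control probe whose reference accession maps to a listed symbol was used, which gave 60 probes of 25 genes among 43653 non-control probes. The other 16 genes had no probe mapped by this rule and were not analysed here: *ESRRB*, *ESRRG*, *NCOA1*, *NCOA2*, *NCOA3*, *NR2F6*, *NR3C1*, *NR4A3*, *NR5A2*, *NR6A1*, *NRIP1*, *PGR*, *PPARGC1B*, *RARB*, *RXRA* and *THRB*. Of the 60 probes, 52 probes of 24 genes were well above background in the same channel on all 4 arrays and were tested. The 3 probes of *RORB*, a retinoic acid-related orphan receptor, were not well above background in either channel on all 4 arrays.

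In muscle these proteins set how much fat is burned, how many mitochondria a fibre holds and how it answers to thyroid hormone, retinoids, glucocorticoids and exercise. Many bind DNA in pairs with a retinoid X receptor, and ligand binding exchanges corepressors such as NCOR1 for coactivators such as PGC-1α, the product of *PPARGC1A*. PGC-1α and the oestrogen-related receptor ERRα are known as a pair that drives genes of oxidative metabolism, and PGC-1α is known to be higher in slow than in fast fibres.

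Semitendinosus muscle of 4 Hereford (HER, a beef breed) and 4 Holstein-Friesian (HF, a dairy breed) bulls was compared, all aged 15 months, with no treatment named in the labels. Each of the 4 dual-colour arrays held RNA of 1 HER bull and 1 HF bull, so every value below is a log2 ratio within an array, given as Cy5 over Cy3. The labels give HER to Cy3 and HF to Cy5 but also speak of exchanged dyes, and the directions of the study's fold changes by breed, which name no dye, would give the breeds to the dyes the other way, so the breed that a positive value stands for is not settled. All arrays ran with 1 dye orientation, and dye and breed cannot be told apart.

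The arrays differed in signal. The median in Cy3 rose from array 1 to array 4, at 77, 79, 108 and 138, and the median in Cy5 was 129 to 160.5. Spots well above background made up 76.7% to 82.1% in Cy5 and 65.2% to 76.3% in Cy3. All 4 lay on 1 slide, any pair of them correlated across probes (not independent replicates) at an r of 0.33 to 0.62, and precision is limited by their number. The skeletal muscle markers were high in both channels, with all 9 genes that had a probe (of 12 listed) above background. Muscle pieces hold several cell types, and fewer cells of a type and less RNA per cell cannot be told apart.

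Across the receptors and coregulators few differences passed the test. A probe is called changed where the Benjamini-Hochberg adjusted p of limma, over all tested probes, was under 0.05. By this rule 2 of the 52 member probes (3.85%) were called, both lower in Cy5, against 3.31% of all 32608 tested probes. They belonged to *ESRRA* and *NR2F2*. No member probe was called higher in the limma fit, against 1.96% of all probes, while the separate-channel fit called 2 higher and the methods' t-test none, and 15 of the 52 member probes (28.8%) had an unadjusted p under 0.05 against 24.7% of all probes. The study asked for a fold change of 1.3 or more in either direction with p, unadjusted, no higher than 0.05; by this criterion 8 member probes (15.4%) passed against 14.4% of all, 1 higher and 7 lower in Cy5. Where arrays were centred on their median in place of loess, 21 were higher and 0 lower by this criterion, so the split depends on that choice. In 19 probes (36.5%) all 4 arrays ran one way, against 32.7% of all. The shares in either direction lie near those of all probes. The split by direction differs from that of all probes, of which 7.96% were higher and 6.48% lower by the study's criterion. Of all probes 1.35% were called lower. The 7 lower member probes were of *ESRRA*, *NR2F2* and *PPARGC1A* alone, and the 1 higher was of *NR2F1*. The median log2 ratio of the member probes was 0.03, beside 0.01 over all tested probes. Leaving out array 1 left 1 member probe called, of *PPARGC1A*, and leaving out array 2, 3 or 4 left 0 called.

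**Figure D1:**
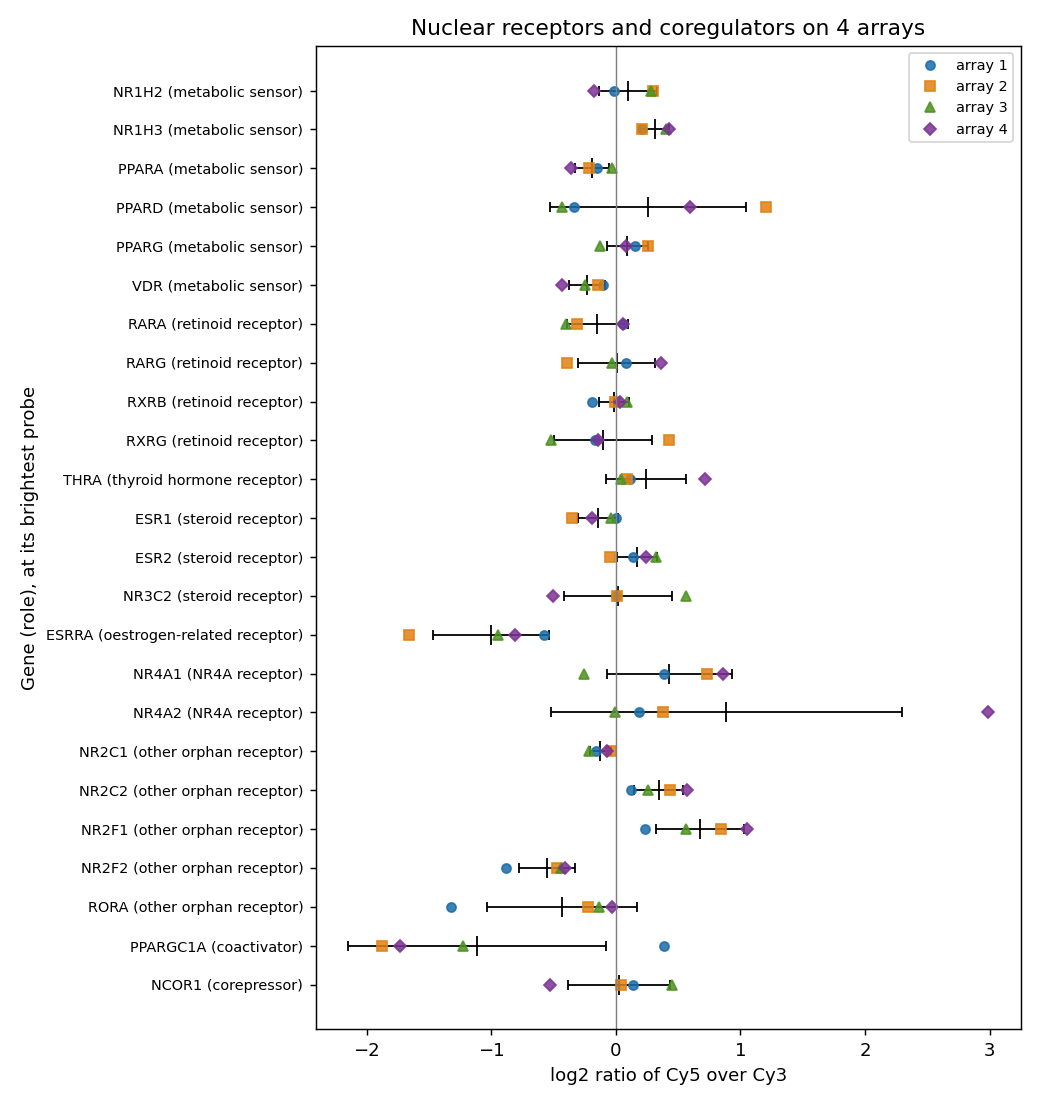
The 24 genes with a tested probe, each at its brightest probe and grouped by role (vertical axis), with the log2 ratio of Cy5 over Cy3 on the horizontal axis. Symbols are the 4 arrays, vertical ticks the mean and bars the SD; *ESRRA*, *NR2F1* and *NR2F2* stand on one side of 0 on every array with means of -1.0, 0.67 and -0.55, and single arrays stand apart in *NR4A2*, *RORA*, *THRA* and *PPARGC1A*.

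*ESRRA* encodes ERRα, an orphan receptor that works with PGC-1α on genes of the respiratory chain and of fatty acid oxidation. Its brightest probe had log2 ratios of -0.58, -1.66, -0.95 and -0.81 on arrays 1 to 4. All 4 lay below 0, and array 2 was the lowest. The mean was -1.0 ± 0.47 (SD, n = 4 arrays), a 2.00-fold difference, with an adjusted p of 0.0487 in the limma fit. The other probe of the gene ran the same way on every array, at -0.25, -1.07, -0.82 and -0.57, with a mean of -0.68 ± 0.35 and a limma adjusted p of 0.0602. Array 1 was nearest to 0 and array 2 farthest at both probes. The call stood close to the threshold: over the alternatives the adjusted p of the brighter probe ranged from 0.0351 to 0.229, and without any 1 of the arrays 1 to 4 it was 0.0660, 0.101, 0.128 or 0.118. Its mean stayed below 0 in every alternative run and was -0.35 where arrays were centred on their median in place of loess.

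*PPARGC1A*, the gene of the coactivator PGC-1α, had the lowest mean of the 24 genes and did not pass the test. At its brightest probe the arrays gave 0.38, -1.88, -1.23 and -1.73, with a mean of -1.11 ± 1.04 and a limma adjusted p of 0.142. Array 1 was above 0 and the other arrays were far below it. The 2 dimmer probes showed the same split, with 0.40 and 0.28 on array 1, and from -1.02 to -1.99 and from -0.49 to -0.75 on the others, and means of -1.10 and -0.42. Without array 1 the mean of the brightest probe was -1.61 with a limma adjusted p of 0.0464, and the other probes had adjusted p of 0.0589 and 0.0636. Without array 2, 3 or 4 the mean of the brightest probe was -0.86, -1.08 or -0.91 with limma adjusted p of 0.364, 0.302 and 0.333, and with median centring of all 4 arrays it was -0.48 with 0.320.

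Slow-fibre genes moved with this split. Over the 7 of 8 slow-fibre markers with a tested probe, all above background in both channels (*TNNI1* had no mapped probe), the mean log2 ratio was 1.49 on array 1 and -0.84, -0.51 and -0.56 on arrays 2 to 4. Their mean level, in log2 signal, ranged from 15.15 to 16.19 in Cy5 and from 14.70 to 15.99 in Cy3, and 1 probe, of *MYL3*, was called. The part of fibre type in the *PPARGC1A* values was not tested. The *ESRRA* probes lay below 0 on array 1 also, where the slow-fibre markers were above it. Both *ESRRA* probes were highest on array 1 and lowest on array 2, as was the marker mean. The part of fibre type in the *ESRRA* values was not tested either.

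Targets of the pair had a share of calls near that of all probes in the limma fit. Of 46 tested probes of 19 of the 20 listed PGC-1 and ERR target genes, 1 was called (2.17%, against 3.31% of all probes). It is the *ESRRA* probe above, a gene that is listed as its own target. By the study's criterion 5 probes were higher and 7 lower (26.1% in all, against 14.4% of all probes), and the median log2 ratio was 0.02. The 7 lower include each tested *ESRRA* probe. With median centring, which called 32.9% of all probes, 28 probes of the list were called higher and 0 lower. The median was then 0.77, beside 0.24 over all probes, 0.86 in the skeletal muscle markers and 0.68 in the slow-fibre markers. The separate-channel fit, which called 9.81% of all probes, called 6 higher and 3 lower. Among the other genes the smallest p-values belonged to a probe of *ATP5F1B*, an ATP synthase subunit, at 0.40 ± 0.18, and to *COX5B*, a subunit of cytochrome c oxidase, at 0.52 ± 0.29 at the probe with the smallest p; both were chosen after their values were seen, with limma adjusted p of 0.0744 and 0.0747.

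**Figure D2:**
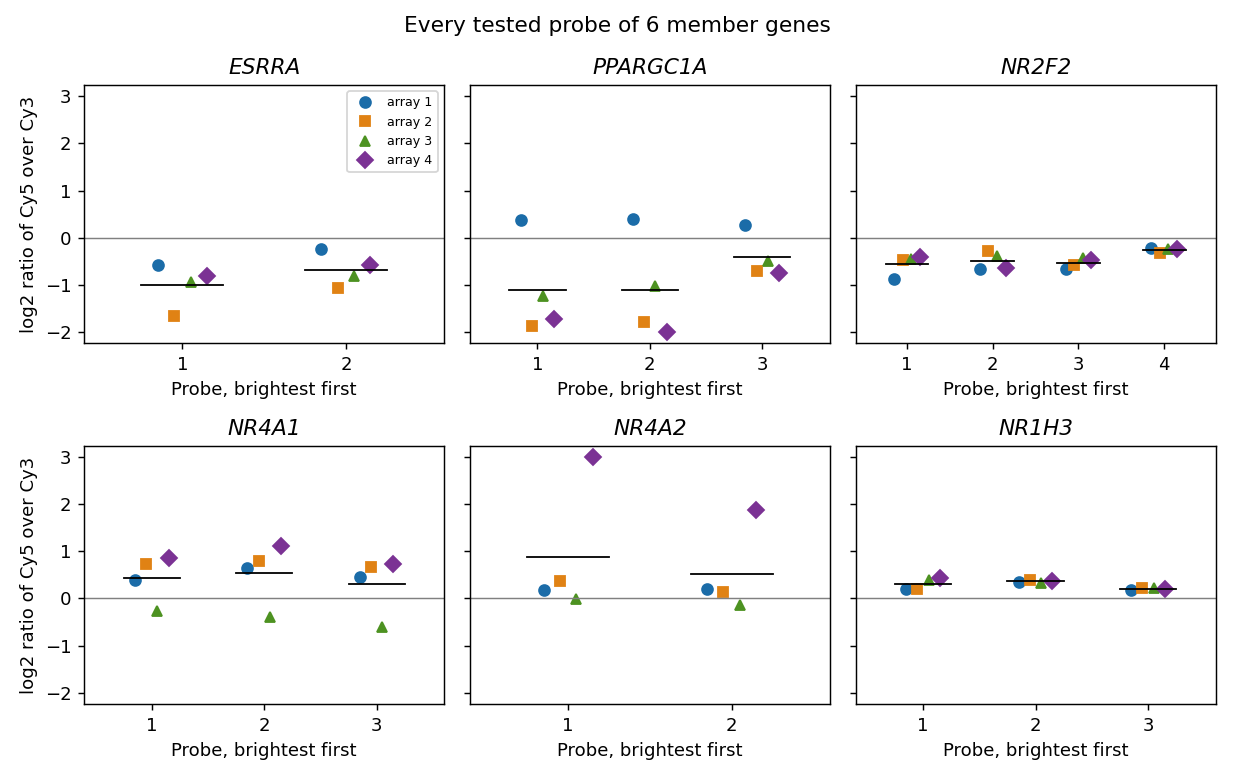
Log2 ratio of Cy5 over Cy3 (vertical axis) at every tested probe of 6 genes, brightest probe first on the horizontal axis. Symbols are the 4 arrays and bars the means; array 1 alone is above 0 at every probe of *PPARGC1A*, array 3 alone is below 0 in *NR4A1*, array 4 is far above the others in *NR4A2*, and the 16 values of *NR2F2* are all below 0.

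*NR2F2* and *NR2F1* encode COUP-TFII and COUP-TFI, closely related orphan receptors that mostly repress and that, in the case of COUP-TFII, are known from stromal and vascular cells and from muscle progenitors. The brightest *NR2F2* probe had log2 ratios of -0.88, -0.47, -0.44 and -0.41, with a mean of -0.55 ± 0.22 and a limma adjusted p of 0.0534. The probe that was called had -0.66, -0.57, -0.43 and -0.47, with a mean of -0.53 ± 0.10, a 1.45-fold difference, and a limma adjusted p of 0.0379. The other 2 probes had means of -0.49 ± 0.19 and -0.25 ± 0.04 with adjusted p of 0.0558 and 0.106. All 16 values of the 4 probes lay below 0. Averaged over its probes, the gene stood at -0.46 with a limma adjusted p of 0.0464, and it was the one member called in that form. Centring arrays on their median turned the 2 brightest probes to 0.03 and 0.02 and left the other 2 at -0.11 and -0.38, so the direction at the bright probes depends on that choice. Without each 1 of the arrays 1 to 4, the adjusted p of the called probe was 0.0749, 0.131, 0.104 and 0.101.

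Collagen genes among the fibroblast markers were lower in Cy5. All 8 listed genes were tested, and 14 of their 41 probes were called (34.1%, against 3.31% of all probes). All 14 were lower and of 3 genes, *COL1A1*, *COL1A2* and *COL3A1*, while 16 of the 41 had means above 0. With median centring, which called 32.9% of all probes, 12 probes of the list were called higher and 11 lower. Without array 1, 2, 3 or 4 the calls were 0, 6, 0 or 0, each lower. Each gene at its brightest probe, the list had a mean log2 ratio of -0.85, 0.04, -0.78 and -0.57 on arrays 1 to 4, and a mean log2 signal of 10.78 to 11.67 in Cy5 and 11.51 to 12.24 in Cy3. On array 2 this mean was near 0 while all 4 *NR2F2* probes were below it. Over all 41 probes the medians of the list were -0.59, -0.38, -0.57 and -0.78, so array 2 depends on the summary. Endothelial and smooth muscle markers had means of 0.09 ± 0.32 and -0.17 ± 0.16 over the arrays. The part of connective tissue in the *NR2F2* values was not tested.

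*NR2F1* gave different answers at its probes. The brighter had 0.24, 0.85, 0.57 and 1.05, all above 0, with a mean of 0.67 ± 0.35, a 1.60-fold difference that met the study's criterion but not the limma adjusted p, at 0.0611. It was well above background in Cy3 on 3 of the 4 arrays. Over the alternatives it was called in 5, among them no background correction at 0.80, plain subtraction at 1.28 and median centring at 0.73. The dimmer probe had a mean of -0.01 ± 0.11 with arrays on both sides of 0.

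The other orphan receptors were not called in the limma fit. *NR2C2*, the testicular receptor TR4, was above 0 on every array at its brightest probe, at 0.12, 0.43, 0.26 and 0.57, with a mean of 0.35 ± 0.20 and a limma adjusted p of 0.106; its other tested probes were at 0.10 and 0.02. The brightest probe was called in the separate-channel fit, with an adjusted p of 0.0364, and with median centring, at 0.54 with 0.0182. *NR2C1*, its relative TR2, was at -0.12 ± 0.08 with all arrays below 0. *RORA*, which drives clock and lipid genes, had -1.32, -0.22, -0.14 and -0.03 at its 1 probe. All arrays were below 0, but array 1 alone gave most of the mean of -0.43 ± 0.60, which was -0.13 without it and 0.01 with median centring. Adipocyte markers had 7 of 8 genes tested (*ADIPOQ* had no mapped probe), of which 6 were above background in both channels. Each gene at its brightest probe, their mean was also lowest on array 1, at -0.75, -0.01, -0.21 and -0.38. Over all 13 probes the medians of the list were -0.20, -0.01, -0.15 and -0.10, so the gap of array 1 depends on the summary. The mean log2 signal of the markers was 7.16 to 7.67 in Cy5 and 7.17 to 8.42 in Cy3. Their part in the *RORA* values was not tested.

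**Figure D3:**
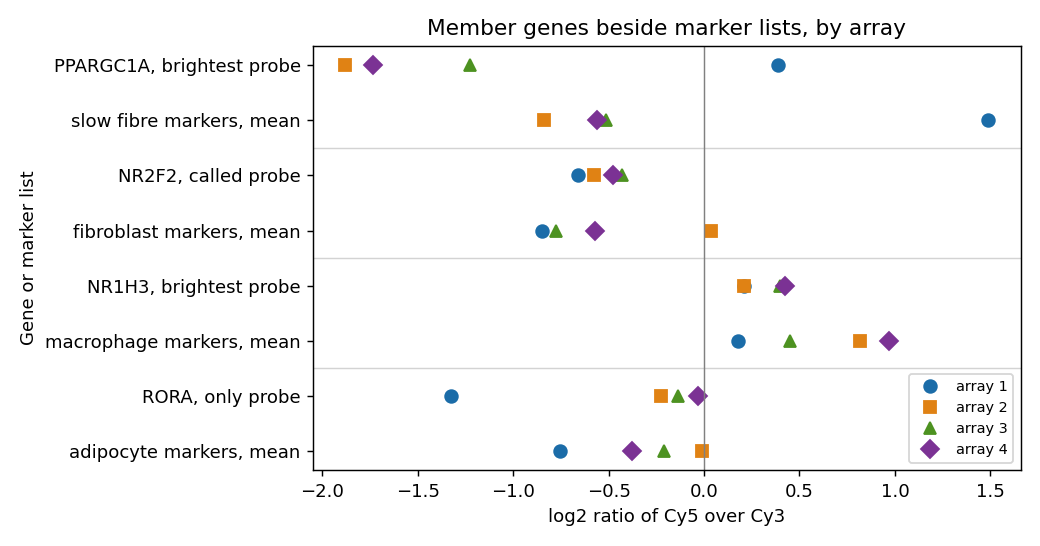
4 member genes, each above the marker list set beside it (vertical axis), by their log2 ratios of Cy5 to Cy3 (horizontal axis) on the 4 arrays, drawn as symbols; the pairs were chosen after the values were seen. *PPARGC1A* and the slow-fibre markers are both above 0 on array 1 alone. On array 2 *NR2F2* is below 0 and the fibroblast markers are at 0.04 at their brightest probes. Their median there over all 41 probes, not drawn, is -0.38.

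*NR4A1* and *NR4A2* encode Nur77 and Nurr1, orphan receptors that are induced within minutes by exercise, adrenergic signals and stress. All 5 tested probes of the pair had means above 0 and none was called in the limma fit, while with median centring all 5 were called higher, at 0.84 to 1.40. The brightest *NR4A1* probe had 0.39, 0.73, -0.26 and 0.86, with a mean of 0.43 ± 0.50 and a limma adjusted p of 0.239. Its other probes had means of 0.54 and 0.31, and array 3 was the one array below 0 at all 3. *NR4A2* had 0.19, 0.38, -0.01 and 2.99 at its brightest probe, a mean of 0.89 ± 1.41, and 0.19, 0.14, -0.15 and 1.88 at the other, a mean of 0.52 ± 0.92. Array 4 stood far above the rest at both, and without it the means were 0.19 and 0.06. The adjusted p were 0.344 and 0.402.

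Other immediate early genes, which are switched on by the same signals, ran the same way. Of 28 tested probes of 14 genes, 2 were called (7.14%, against 3.31% of all probes), both higher in Cy5: *KLF4* at 1.84 ± 0.75 and *ZFP36*, which destabilises cytokine mRNAs, at 0.85 ± 0.36, with limma adjusted p of 0.0383 and 0.0446. By the study's criterion 16 (57.1%) were higher and 0 lower, and the median was 0.80. The median of the list by array was 0.83, 0.87, 0.18 and 0.90, so array 3, on which both NR4A genes were below 0, was the lowest here too.

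The metabolic sensors, receptors of oxysterols, fatty acids and vitamin D, had all 6 genes tested and 0 of 12 probes called, with means from -0.23 to 0.36. The separate-channel fit and the methods' t-test called 0 as well, no filter on dim probes called 1, of *NR1H3*, and median centring 4, all higher, of which 3 were of *NR1H3*, at 0.97, 0.85 and 0.41, and 1 of *NR1H2*, at 0.79. In the limma fit 4 of the 12 had an unadjusted p under 0.05, against 24.7% of all probes. These were the 3 probes of *NR1H3* and that of *VDR*. Of the 3 probes of *NR1H3*, the gene of the oxysterol receptor LXRα, 2 had the smallest SDs of all tested member probes. Its brightest probe had 0.21, 0.21, 0.40 and 0.42, and the second 0.36, 0.40, 0.32 and 0.36. The third had 0.19, 0.22, 0.22 and 0.21. All 12 values were above 0 within a narrow range. The means were 0.31 ± 0.12, 0.36 ± 0.03 and 0.21 ± 0.01 with limma adjusted p of 0.0901, 0.0558 and 0.144, and the folds, 1.24, 1.28 and 1.16, all stayed under the 1.3 of the study's criterion. *NR1H2*, the gene of LXRβ, had means of 0.10, -0.06 and 0.05, with no probe on one side of 0 on all arrays.

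LXRα is high in macrophages. Macrophage markers were above 0 on every array, with means over 7 of 8 listed genes (*MRC1* had no mapped probe), all above background in both channels, of 0.18, 0.82, 0.45 and 0.97. Their mean log2 signal was 9.24 to 9.93 in Cy5 and 8.63 to 9.06 in Cy3. In the limma fit 0 of 11 probes were called and 8 (72.7%) had an unadjusted p under 0.05, against 24.7% of all probes. The separate-channel fit, which called 9.81% of all probes, called 3 and the methods' t-test 0. The markers were highest on array 4, as was the brightest *NR1H3* probe, while the other *NR1H3* probes were not. On array 2 the markers were at 0.82 and the brightest *NR1H3* probe at 0.21. The part of macrophages in the *NR1H3* values was not tested.

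LXR targets had a call in each direction in the limma fit. Of 24 tested probes of 8 genes, which include the 3 of *NR1H3* itself, *MYLIP*, a ubiquitin ligase that removes the LDL receptor, was called at 0.55 ± 0.19, and *SCD*, the stearoyl-CoA desaturase, at -0.71 ± 0.29. The limma adjusted p were 0.0469 and 0.0474. These 2 calls are 8.33% of the list, against 3.31% of all probes. By the study's criterion 3 probes were higher and 8 lower (45.8% in all, against 14.4% of all probes). The median of -0.04 turned to 0.18 with median centring. The split of calls depended on the fit, with 0 higher and 7 lower in the separate-channel fit and with an intensity trend. It was 0 and 5 with plain subtraction, 0 and 3 with the scanner-processed signals, and 10 and 2 with median centring. In the same order of fits, the shares of all probes called were 9.81%, 5.11%, 4.64%, 4.27% and 32.9%. Of the 25 probes for the supply of steroid and oxysterol ligands, 2 were called (8%, against 3.31% of all probes), both higher. They were of *CH25H*, which makes the LXR ligand 25-hydroxycholesterol, at 1.14 ± 0.30, and of *HSD17B11* at 0.68 ± 0.25. Their limma adjusted p were 0.0273 and 0.0441.

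The 3 PPARs, fatty acid receptors, did not pass the test. *PPARD*, the form most used by muscle, had -0.34, 1.21, -0.43 and 0.60 at its brightest probe. The arrays split evenly about 0, and the mean of 0.26 ± 0.78 was smaller than their spread. The second *PPARD* probe was at 0.17 ± 0.26, the probes of *PPARG* at 0.09 ± 0.16 and 0.08 ± 0.10, and *PPARA* at -0.19 ± 0.14. *PPARA* was below 0 on all 4 arrays. *VDR*, the vitamin D receptor, was below 0 on all 4 also, at -0.11, -0.14, -0.25 and -0.43, with a mean of -0.23 ± 0.15 and a limma adjusted p of 0.176.

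Among 60 probes of 22 PPAR target genes 4 were called (6.67%, against 3.31% of all probes), 1 higher and 3 lower. *ETFDH*, which passes electrons from fatty acid oxidation to the respiratory chain, was lower at a pair of probes, at -0.62 ± 0.16 and -0.50 ± 0.11, and *ACSL1*, which activates fatty acids, at -0.57 ± 0.20. *PLIN2*, a lipid droplet coat protein, was higher at 0.82 ± 0.34. Their limma adjusted p lay between 0.0355 and 0.0482. By the study's criterion 6 were higher and 16 lower (36.7% in all, against 14.4% of all probes). The median of the list, -0.14, turned to 0.46 with median centring. Under that setting 23 probes were called higher and 1 lower, and 32.9% of all probes were called.

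The receptors of retinoids and thyroid hormone had no call in the limma fit. Over 4 of 6 retinoid receptor genes, 7 probes had means from -0.15 to 0.19 and 0 were called by limma, the methods' t-test or the separate-channel fit, with 0 at an unadjusted p under 0.05. *RXRG*, the retinoid X receptor of muscle, had -0.17, 0.43, -0.52 and -0.14 at its brighter probe and 0.01, 0.57, -0.26 and 0.45 at the dimmer. Both were highest on array 2 and lowest on array 3, and their means were -0.10 and 0.19. *RARA*, *RARG* and *RXRB* had means of -0.15, 0.01 and -0.02 at their brightest probes. With median centring the brightest *RARG* probe was called at 0.67, with an adjusted p of 0.00840.

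*THRA*, the main thyroid hormone receptor of muscle, was above 0 on all arrays at both probes. The brighter had 0.11, 0.09, 0.04 and 0.72, and the dimmer 0.25, 0.13, 0.20 and 0.42. Array 4 was the highest at both. The means were 0.24 ± 0.32 and 0.25 ± 0.12 with limma adjusted p of 0.335 and 0.138, and without array 4 they were 0.08 and 0.19. With median centring both probes were called, at 1.01 and 0.74 with adjusted p of 0.00375 and 0.00609. Among genes that supply or remove retinoid and thyroid ligands, 0 of 21 probes were called by limma, the separate-channel fit or the methods' t-test. In the limma fit 2 (9.52%) had an unadjusted p under 0.05, against 24.7% of all probes. Among them *DHRS3*, a retinal reductase, was at 0.50 ± 0.33 with a limma adjusted p of 0.0926. Of 31 probes of thyroid receptor targets 0 were called by limma or the methods' t-test. The separate-channel fit, which called 9.81% of all probes, called 5. In the limma fit 9 (29.0%) had an unadjusted p under 0.05, against 24.7% of all probes. *UCP3*, a mitochondrial carrier of fast fibres, was at -1.16 ± 0.58 with all arrays below 0 and a limma adjusted p of 0.0517, and *ME1*, the malic enzyme, at -0.59 ± 0.33 with 0.0703. The medians of these lists, -0.05 and -0.07, turned to 0.04 and 0.56 with median centring.

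Of the steroid receptors, *ESR1*, *ESR2* and *NR3C2* had 5 tested probes, with means from -0.15 to 0.17 and 0 called by limma, the methods' t-test or the separate-channel fit, and 0 at an unadjusted p under 0.05. The probes of *ESR1* and *ESR2*, the oestrogen receptors, were dim, and 3 of their 4 tested probes were not above background in Cy3 on every array. *NR3C2*, the mineralocorticoid receptor, had 0.00, 0.01, 0.56 and -0.50. Array 3 and array 4 stood on opposite sides of 0, so the mean of 0.02 ± 0.43 came from values that cancelled. With median centring 4 of the 5 probes of this class were below 0, in place of 1.

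Glucocorticoid receptor targets had the highest share of called probes among the 10 lists set beside the receptors in the limma fit. With median centring, which called 32.9% of all probes, 30 of 45 were called here and 23 of 28 of the immediate early genes. The receptor gene itself, *NR3C1*, was not analysed here. Of 45 probes of 18 target genes 9 were called (20%, against 3.31% of all), all higher in Cy5. The smallest p-values were those of *CEBPD*, at 3.57 ± 0.39, *KLF15*, at 1.72 ± 0.45, *ERRFI1*, at 0.75 ± 0.20, and *NFKBIA*, at 1.45 ± 0.51. The first pair are transcription factors of the stress response, *ERRFI1* restrains growth factor receptors, and *NFKBIA* restrains NF-κB. Their limma adjusted p were 0.00562, 0.0233, 0.0326 and 0.0328. By the study's criterion 21 (46.7%) were higher and 0 lower, and the median was 0.58. Members of the list also varied between arrays: *FKBP5*, a chaperone of the receptor named here after its values were seen, had 0.45, 2.04, -0.60 and -0.40 at the probe with its smallest p, with a mean of 0.37 ± 1.20.

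**Figure D4:**
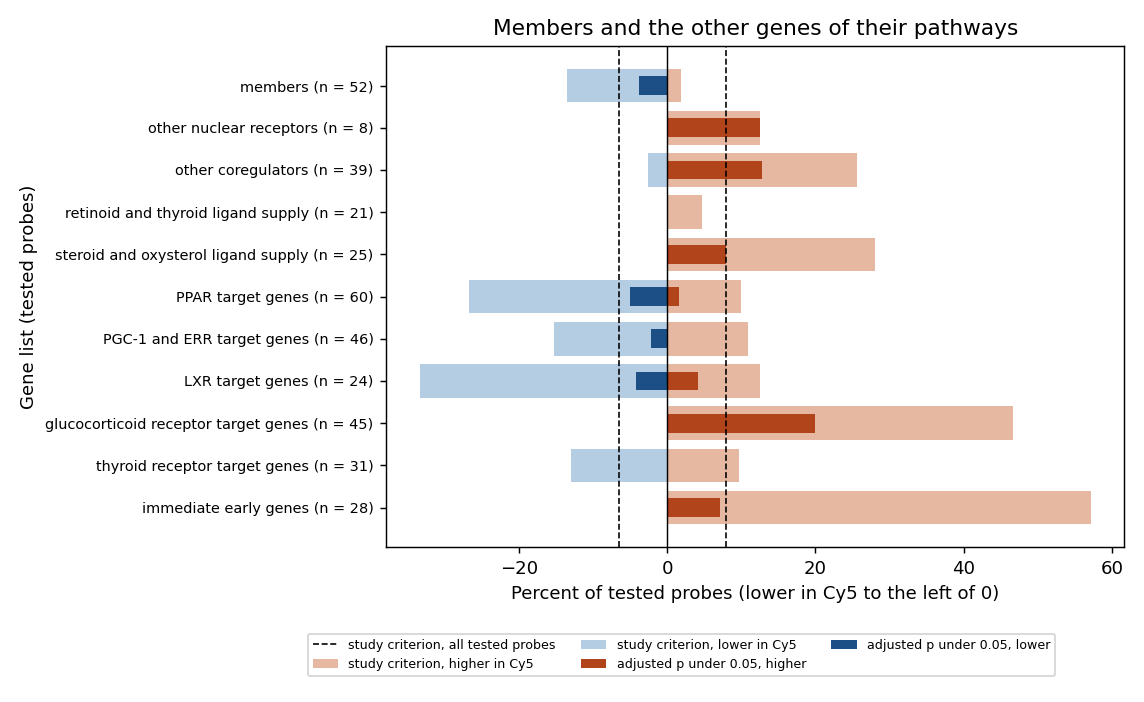
Percent of tested probes (horizontal axis) that met the study's criterion (pale bars) or had a limma adjusted p under 0.05 (dark bars), higher in Cy5 to the right and lower to the left of 0, for the members and 10 lists of their pathways (vertical axis, with the number of tested probes). Dashed lines give the criterion's share over all tested probes, 7.96% higher and 6.48% lower; glucocorticoid receptor targets and immediate early genes have bars to the right only.

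*NCOR1*, the corepressor held by receptors that have no ligand, had 5 tested probes and no call in the limma fit, while with median centring 3 were called higher, at 0.72, 0.77 and 0.89. Its brightest probe had 0.14, 0.04, 0.45 and -0.53, with a mean of 0.02 ± 0.41. The means of the others were 0.07, 0.29, 0.03 and -0.03. Array 4 was the lowest at all 5, so the probes shared the array that stood apart and differed in the mean by less than the spread between arrays. Of 39 probes of 15 coregulators outside the listed members 5 were called (12.8%, against 3.31% of all probes), all higher, on 2 genes. Without any 1 of the arrays 0 were called. The 4 called probes of *NCOA4*, a coactivator that also delivers ferritin to lysosomes, lay between 0.54 and 0.89, while another probe of it was at 0.08, and *CREBBP*, an acetyltransferase, was at 0.63 ± 0.22. The brightest called *NCOA4* probe had a mean of 0.78 ± 0.16 with a limma adjusted p of 0.0283, and *CREBBP* had 0.0432.

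Other nuclear receptors were mostly dim. Of 10 genes with a probe, 6 were tested at 8 probes, and 1 probe was called (12.5%, against 3.31% of all probes). It was of *NR1D1*, the clock repressor REV-ERBα, and had 0.36, 0.73, 0.64 and 1.09. All arrays were above 0, with a mean of 0.70 ± 0.30 and a limma adjusted p of 0.0497. Its other probe was at 0.12 ± 0.08. The median of this list, 0.01, was -0.06 with median centring. Over all 10 lists, 26 of 317 probes were called (8.20%, against 3.31% of all probes), 21 higher and 5 lower. Without array 1, 2, 3 or 4 this was 4, 1, 1 or 1, and over all probes 1078 calls became 115, 38, 5 or 5, so the counts here rest on having all 4 arrays.

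In some genes all probes shared their highest or lowest array. Of 16 member genes with several tested probes, 10 had probe means of 1 sign and 6 of both signs. In 8 of the 16 all probes shared the highest array, in 7 the lowest, and in 5 both. Probes of a gene read the same RNA, so this is no replication of a difference between breeds. At the brightest probe, 10 of the 24 genes were highest on array 4 and 8 were lowest on array 3.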

How the data were processed

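Each of the 4 arrays held 1 bull per breed. The authors deposited intensity values straight from the scanner; per the file headers and processing notes, Feature Extraction 10.7.3.1 read median signals and local backgrounds, and the design had been annotated on Btau 3.1. The deposited series table holds log10 ratios of Cy5 over Cy3, equal to those of the scanner files (largest difference 0).

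Median signals were background-corrected with normexp (offset 50) and normalized by loess within arrays giving control spots no weight. Outlier spots were dropped, and spots of 1 probe averaged. Probes well above background in 1 channel on all 4 arrays, with values on at least 3, were tested on the log2 scale against 0 with limma 3.58.1 and statmod 1.5.0 in R 4.3.3, two-sided. Probes were named through accessions (23492 probes); several accessions of a gene were pooled. The study's criterion, read on this fit, stands in for the methods' t-test, which was run as an alternative. Signal levels are log2 values compared between channels of 1 gene list.

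Members and lists were chosen with earlier results of these data known. All members are accounted for, at the brightest tested probe and the others; of each list the called genes were named, up to the 4 with the smallest p, or the 2 smallest where none was called; a gene this rule names is not reported here. Other backgrounds, signals, centring, filters and tests, and leaving out each array, were tried. The fit was tested on simulated data.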

Additional observations from a re-analysis of the deposited data

Results flagged for a closer look

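Of the 52 tested member probes, 5 had 1 array far from the others, judged by its gap to the nearest array over the range of all 4 against the critical value of Dixon's test, which chance passes in about 1 of 20 groups. For *NR4A2*, array 4 had a share of 0.871 at the brightest probe and 0.833 at the other. For *THRA*, array 4 had 0.892 at the brightest probe. For *RORA*, array 1 had 0.852, and for *NR2F2*, array 1 had 0.861 at the brightest probe. In *NR4A2*, *THRA* and *RORA* the outlying array gave most of the mean, and in *NR2F2* the other 3 arrays, from -0.47 to -0.41, stood on the same side of 0.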

How the results depend on the processing

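The member count of 2 calls was 0 with the scanner-processed signals, the series table and the methods' t-test, 17 with median centring (all higher in Cy5), 4 with an intensity trend and a robust prior, 5 with the separate-channel fit, and 0 to 1 without single arrays; counted as genes, 2 became 1 with the mean over probes. Member probes that met the study's criterion, 8, were 14 with plain subtraction and 21 with median centring, all higher in place of 1 higher and 7 lower. Calls in the pathway lists, 26, were 159 with median centring, 16 with no filter on dim probes, 47 with the trend, 0 with the methods' t-test, 72 with the separate-channel fit, and 1 to 4 without single arrays. Over all probes, 1078 calls became 10726 with median centring (32.9% of tested probes), of which 10013 were higher and 713 lower against 639 and 439. They became 1666 with the trend, 0 with the methods' t-test, 3198 with the separate-channel fit (9.81%), and 5 to 115 without single arrays. Leaving out an array leaves fewer samples; the other causes were not tested. Median centring moved the median log2 ratio of all tested probes from 0.01 to 0.24, but not every probe by the same amount. The brightest *NR1H2* probe, with a mean log2 signal of 12.1, went from 0.10 to 0.79. The dimmest tested *ESR1* probe, with a mean log2 signal of 6.2, went from 0.10 to -0.28. Calls under this setting therefore cannot be read against 1 common shift. The brightest *NR2F2* probe (A_73_P101941) reversed to a log2 ratio of 0.034 there. The fits on ratios already use the pairing of 1 bull per breed on each array, because each value is a ratio within 1 array. No further pairing was possible, as no second group shares its number. Ratios of dim probes depend on the background: *NR2F1*, near background in Cy3, was 0.67 with normexp and 1.28 with plain subtraction.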
